A study of Mus musculus with 8 samples.

Results

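The imprinted domain of distal mouse chromosome 7 was followed by its 5-hydroxymethylcytosine (5hmC) peaks through reprogramming of fibroblasts. The domain is the window chr7:149740000-150750000 of the mouse assembly mm9, 1.01 Mb that run from H19 and Igf2 past Ascl2 and Kcnq1 to Cdkn1c and Phlda2. Every peak that shared at least 1 bp with the window was taken, which gave 345 of the 684512 peaks in 8 lists. The libraries were reprogramming intermediates made with OySyNyK at D1, D3 and D5, intermediates made with OSNK on the same days, induced pluripotent stem cells (iPSC) whose title carries the OySyNyK factors, and mouse embryonic fibroblasts (MEF). Each group held 1 library, so no group has a replicate, no difference could be tested, and every comparison describes single libraries. D is read as day. OSNK is known from the study as Oct4, Sox2, Nanog and Klf4. In OySyNyK, Oct4, Sox2 and Nanog each carry a YAP transactivation domain, and Klf4 does not. The labels' growth protocol names OG2-MEFs, fibroblasts of a mouse strain known to carry a reporter driven by Oct4 sequences. The medium for iPSC generation held vitamin C and LIF, and iPSC were kept on MEF feeder cells treated with mitomycin C. Whether feeder DNA entered the iPSC library was not tested. No label used here gives further strain details, the age or the number of animals behind the fibroblasts. The peak lists hold no expression values, so the cell types could not be checked against marker genes.

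5hmC is made from 5-methylcytosine by the TET enzymes, mainly at CpG sites. An imprinted gene is expressed mainly from 1 parental chromosome. H19, a noncoding RNA, is expressed from the maternal chromosome, and Igf2, a fetal growth factor, from the paternal one. Both are governed by a control region that carries DNA methylation on the paternal copy and binds CTCF on the maternal copy. A second control region lies inside Kcnq1 and holds the promoter of Kcnq1ot1, a noncoding RNA that runs antisense to Kcnq1 and is made from the paternal chromosome. Under its control stand maternally expressed genes such as Kcnq1, a potassium channel subunit, Cdkn1c, an inhibitor of cyclin-dependent kinases, and Phlda2, a regulator of placental growth. Ascl2 is a transcription factor of the trophoblast. The capture assay reads both parental chromosomes together, so no peak can be given to one of them.

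In a RefSeq gene table of assembly GRCm38.p6 all 6 members were found on chromosome 7, in the order H19, Igf2, Ascl2, Kcnq1, Cdkn1c and Phlda2. The other 17 genes of the domain that were looked up were found as well. Ins2 and Th lie between Igf2 and Ascl2 there, Tspan32, Cd81, Tssc4 and Trpm5 lie between Ascl2 and Kcnq1, and Slc22a18 lies between Cdkn1c and Phlda2. An annotation of mm9 was not used here, so positions below are places in the window and are not given to single genes. The start of the window is its H19 side and the end its Phlda2 side.

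RefSeq promoter sequences were matched for 3 of the 6 members, Igf2, Ascl2 and Phlda2, and for Kcnq1ot1; H19, Kcnq1 and Cdkn1c were not matched. They are shown because CpG sites are where 5hmC can form and because these starts differ widely in them. Each line gives the 250 bases before a transcription start, on the minus strand of GRCm38.p6 and read 5′ to 3′, with CpG in capitals. The positions are those of GRCm38.p6 and cannot be set beside the mm9 positions of the peaks, so no peak was placed on a promoter.
Igf2, chr7:142666817-142667066: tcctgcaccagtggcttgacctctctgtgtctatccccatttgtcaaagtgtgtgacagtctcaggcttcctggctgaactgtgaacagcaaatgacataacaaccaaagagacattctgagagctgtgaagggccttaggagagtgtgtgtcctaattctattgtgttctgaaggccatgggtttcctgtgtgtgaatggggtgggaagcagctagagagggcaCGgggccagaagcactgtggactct
Igf2, chr7:142658805-142659054: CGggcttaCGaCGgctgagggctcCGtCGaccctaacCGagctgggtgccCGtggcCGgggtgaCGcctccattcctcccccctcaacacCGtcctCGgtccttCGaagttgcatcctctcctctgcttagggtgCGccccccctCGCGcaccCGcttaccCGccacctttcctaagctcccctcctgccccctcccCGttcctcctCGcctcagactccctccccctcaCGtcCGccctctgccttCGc
Kcnq1ot1, chr7:143296548-143296797: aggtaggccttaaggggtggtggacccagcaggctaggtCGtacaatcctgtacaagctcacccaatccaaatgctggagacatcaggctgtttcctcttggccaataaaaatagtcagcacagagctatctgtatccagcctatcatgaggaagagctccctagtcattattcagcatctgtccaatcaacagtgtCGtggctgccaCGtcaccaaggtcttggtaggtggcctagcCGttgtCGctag
Phlda2, chr7:143502525-143502774: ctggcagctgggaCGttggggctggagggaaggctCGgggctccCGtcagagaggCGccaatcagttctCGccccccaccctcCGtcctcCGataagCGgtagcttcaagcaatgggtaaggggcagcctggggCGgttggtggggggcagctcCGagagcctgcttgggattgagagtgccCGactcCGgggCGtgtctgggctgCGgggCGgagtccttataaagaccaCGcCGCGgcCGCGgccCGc
The first Igf2 sequence holds 1 CpG and the second 22, the other Igf2 starts hold 10 and 6, Ascl2 holds 19 and Phlda2 21. Kcnq1ot1 holds 5. The motif searched was CG, which reads the same on both strands. At least 1 CG is found in 92.1% of the 32851 promoters of the table, and the median is 6.

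The lists held 54938 peaks in iPSC to 116302 at OSNK D1, and their median score, the authors' own value for each peak, lay between 71.0 in iPSC and 105 at OSNK D1. Read depth is unknown, and fewer cells with 5hmC at a place cannot be told apart from less 5hmC per cell. The share of bases under a peak, called cover, was between 1.56% in iPSC and 3.72% at OSNK D3 over the whole lists. A position without a listed peak may still hold 5hmC, since the lists keep peaks with a score of 50 or more only.

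Cover of the imprinted window was lower at each later day of both methods and lowest in iPSC, in the lists as deposited. It was 4.65% in MEF, 5.65% at OySyNyK D1, 3.94% at OySyNyK D3, 2.47% at OySyNyK D5 and 2.26% in iPSC. With OSNK it was 4.39% at D1, 3.83% at D3 and 2.80% at D5. Only OySyNyK D1 lay above MEF, and with scores of 100 or more it did not, at 2.73% against 3.35% in MEF. With equal numbers of peaks, as many as the shortest list holds, OySyNyK D1 was at 3.31% and MEF at 4.26%. The order was not the same in every setting: with equal numbers iPSC, at 2.26%, lay above OySyNyK D5 at 2.01% and OSNK D5 at 1.87%. With every peak set to 500 bp, OySyNyK D1 at 3.71%, OySyNyK D3 at 2.37% and OSNK D1 at 2.51% lay above MEF at 2.16%. In that setting OSNK had 1.62% at D3 and 1.87% at D5. In the whole lists as deposited, cover of the genome was 2.39% in MEF. With OySyNyK it was also lower at each later day, at 2.92%, 2.82% and 2.18%, and was 1.56% in iPSC. With OSNK it was not, at 3.49%, 3.72% and 2.66%. The 2 flanks of 1 Mb beside the window had lower cover at each later day of both methods. They had 5.16%, 5.02% and 3.30% with OySyNyK and 4.64%, 4.12% and 2.67% with OSNK. A decline over the days was therefore not particular to the window. In MEF the window was covered at 1.95 times the level of the whole list, at OySyNyK D1 at 1.94 times and at OSNK D1 at 1.26 times. The ratio was 1.40 and 1.13 at D3 and D5 of OySyNyK, 1.03 and 1.05 at those of OSNK, and 1.45 in iPSC. Among 2602 stretches of the same length along the genome, 82.7% had less cover than the window in MEF and 77.1% in iPSC. At OSNK D3, where this share was smallest, it was 60.8%.

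**Figure D1:**
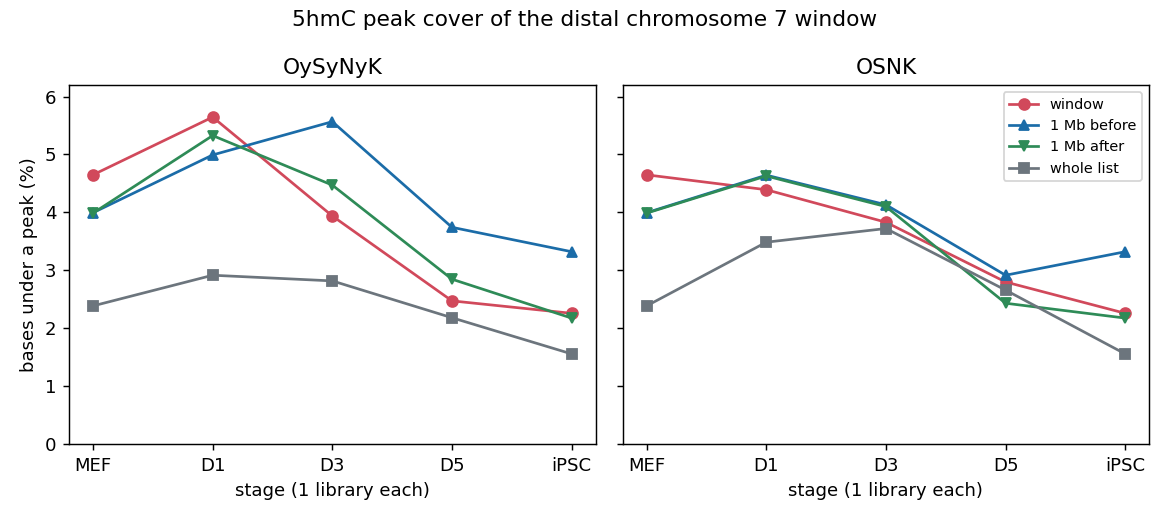
Share of bases under a 5hmC peak (%) in the imprinted window, in the 1 Mb before it, in the 1 Mb after it and in the whole list, for OySyNyK (left) and OSNK (right), from MEF over D1, D3 and D5 to iPSC. Each point is 1 library; window cover is 4.65% in MEF, 5.65% at OySyNyK D1 and 2.26% in iPSC, and the MEF and iPSC points are the same in both panels.

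In the lists as deposited, the number of peaks in the window was likewise lower in iPSC than in MEF and highest at OySyNyK D1. Among the OSNK days it was lowest at D3. There were 29 peaks in iPSC (95% Poisson interval 19.4 to 41.6) and 44 in MEF (31.97 to 59.1). OySyNyK had 75 peaks at D1 (59.0 to 94.0), 48 at D3 and 27 at D5 (17.8 to 39.3). OSNK had 51, 33 and 38 on these days. Per Mb, the window held 28.7 peaks in iPSC, 43.6 in MEF and 74.3 at OySyNyK D1. The 2 flanks together held 36.5, 35.5 and 66.0, and the whole lists 20.8, 24.9 and 38.3. The lower number in iPSC was thus not seen in the flanks, and OySyNyK D1 was high there too. The intervals cover counting error only and not the spread between cultures. They also leave out list length, which was 100951 peaks at OySyNyK D1 and 70592 at OySyNyK D5, so no difference is read from them. With equal numbers of peaks the window held 38 at OySyNyK D1, 20 at OySyNyK D5, 39 in MEF and 29 in iPSC. For scores of 100 or more it held 30 at OySyNyK D1 and 30 in MEF.

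The iPSC minus MEF difference in window cover was -2.39 percentage points, against -0.83 points over the whole lists and -1.24 points in the 2 flanks of 1 Mb together. Without 1 stretch of 50 kb, from 150200001 and described below, the window had 2.38% in iPSC and 3.64% in MEF. The flanks had 2.75% and 3.99%, so outside that stretch the difference was near that of the flanks. The stretch was chosen after its values were seen. With every peak set to 500 bp round its midpoint the difference of the whole window was -0.73 points.

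Against its own flanks the window was not uniformly rich or poor in 5hmC peak cover. It was covered at 0.822 times the flanks in iPSC and at 1.16 times in MEF. OySyNyK gave ratios of 1.09, 0.785 and 0.751 at D1, D3 and D5, and OSNK 0.947, 0.931 and 1.05. The flanks themselves differed. In iPSC the 1 Mb before the window was covered to 3.32% and the 1 Mb after it to 2.18%, whereas in MEF the flanks together were covered to 3.99% and differed little. With flanks of 500 kb the ratio was 1.07 in iPSC and 0.95 in MEF, so the side of 1 on which these libraries lie depends on how far the flanks reach.

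Within the window, cover was concentrated in a few places. Of its 20 full bins of 50 kb, 2 were without a peak in every library, and 11 at OySyNyK D5 to 17 at OySyNyK D1 held one. In the 1 Mb before the window, the bins from 149350001 and 149450001 were without a peak in every library too. Cut into 4 stretches of equal length, the window had the highest iPSC cover of all libraries in the first, on the H19 side, with 2.12% in iPSC and 1.75% in MEF. Over the days that stretch was covered to 1.64%, 1.34% and 0.982% with OySyNyK and to 0.97%, 0.351% and 0.297% with OSNK. In the other 3 stretches iPSC lay below MEF, with 1.54%, 2.18% and 3.20% in iPSC against 5.33%, 4.28% and 7.23% in MEF.

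**Figure D2:**
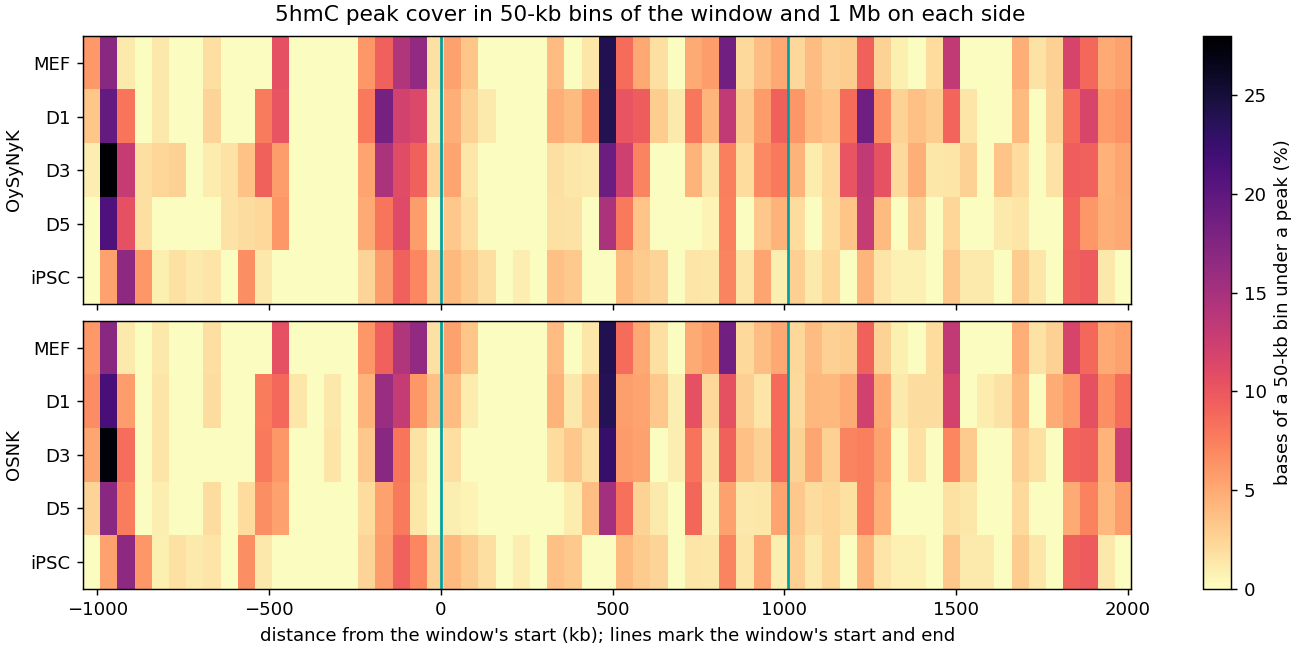
Cover of 50-kb bins (% of bases under a peak, colour) against distance from the window's start (kb), with OySyNyK above OSNK and, in each, rows for MEF, D1, D3, D5 and iPSC, 1 library each; the lines mark the window. The dark bin near the middle of the window is covered to 24.0% in MEF and is empty in iPSC only, and the MEF and iPSC rows are the same in both panels.

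For the comparison of iPSC with MEF a bin counted as higher or lower when cover differed at least 2-fold and by at least 2 percentage points. Of 17 bins with a peak in either library, 6 were lower in iPSC and 1 was higher. Over the genome 34.2% of 29030 such bins were lower and 13.8% higher. On this grid the number of lower bins in the window is thus near the background. With bins moved by 25 kb, 8 of 15 were lower and 1 higher, beside 34.2% and 13.7% over the genome. With peaks of 500 bp 3 of 17 bins were lower and 2 higher, beside 26.5% and 17.2% over the genome. With cover scaled by the library mean 4 of 17 were lower and 4 higher, beside 30.7% and 23.2%. What stood out was the size of a single one. The bin from 150200001 to 150250000 had no peak in iPSC and was covered to 24.0% in MEF. On the 3 days it was covered to 23.9%, 18.96% and 14.7% with OySyNyK, and to 23.8%, 22.7% and 15.2% with OSNK. All 6 intermediates therefore lay at or below MEF and far above iPSC.

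That bin carried a large part of the window's peak cover in MEF and the intermediates. It held 25.5% of the window's covered bases in MEF, between 20.9% and 29.5% in the intermediates and none in iPSC. Without it, cover of the window was 2.38% in iPSC and 3.64% in MEF. A difference as low as its -24.0 points was found in 104 of the 29030 bins, or 0.358%. Of 355 bins in the genome with at least its MEF cover, 11 had no iPSC peak, and the median iPSC cover of the 355 was 9.38%. These rankings were chosen after the value was seen. Keeping scores of 100 or more gave -17.0 points, and peaks of 500 bp gave -10.1 points.

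The bin was built of 11 regions, formed by merging peaks of all libraries that overlap or touch. The widest, from 150239803 to 150244749, had a peak in every library but iPSC. Its highest scores were 214 in MEF, 546, 518 and 336 over the OySyNyK days and 645, 888 and 369 over the OSNK days. The score of 888 was the highest of the OSNK D3 peaks in the window. Beside it, the region from 150245224 to 150249297 scored 261 in MEF, 430, 203 and 166 with OySyNyK and 485, 292 and 448 with OSNK, and was without an iPSC peak as well. Scores can depend on depth, so they rank peaks within a list and not between lists.

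At the other end of the bin peaks were not listed on every day. The region from 150200548 to 150202012 held the highest-scoring MEF peak of the window, at 457. It scored 385 and 201 at D1 and D3 of OySyNyK and had no peak at D5. With OSNK it scored 275, 65.4 and 58.2. The next region, from 150202014 to 150203527, had peaks in all libraries except iPSC, with 121 in MEF, 116 at OySyNyK D5 and 174 at OSNK D5. Loss of peaks in this bin thus came at different days for neighbouring regions, and 4 of the 11 still had a peak at D5 of both methods.

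**Figure D3:**
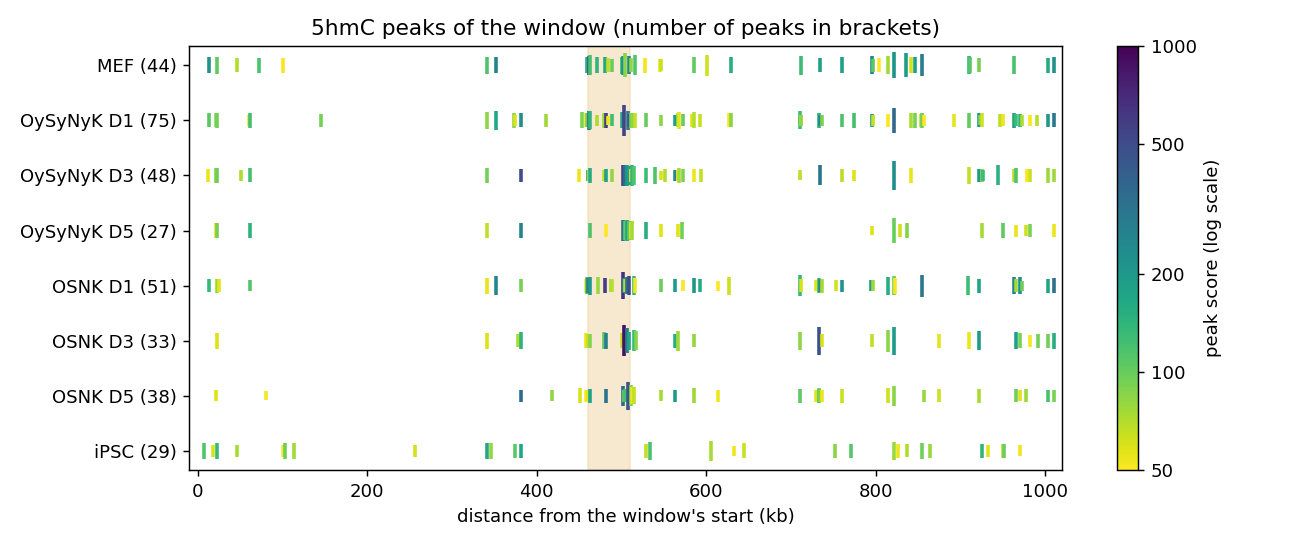
Each tick is a 5hmC peak of the window at its distance from the window's start (kb), coloured by score on a log scale and taller where the peak is wider, in 1 row per library; brackets give the number of peaks, 44 in MEF, 75 at OySyNyK D1 and 29 in iPSC. The shaded 50-kb bin holds many ticks in MEF and the intermediates and none in iPSC.

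The second lowest difference lay in the last stretch of the window, in the bin from 150550001 to 150600000. It was covered to 7.15% in iPSC and 18.6% in MEF. Over the days it was covered to 13.2%, 7.50% and 7.43% with OySyNyK and to 10.5%, 9.29% and 5.39% with OSNK. Here the intermediates were already at or near the iPSC level by D3 with OySyNyK and by D5 with OSNK. The difference from MEF was -2.00 points with peaks of 500 bp. This bin holds the only region of the window with a peak in all 8 libraries, from 150560143 to 150563231. Over the genome 2.58% of regions had one. It scored 78.8 in iPSC and 219 in MEF, 368, 232 and 99.0 over the OySyNyK days, and 96.7, 194 and 85.2 over the OSNK days. The widest peaks of MEF, OySyNyK D3 and OySyNyK D5 in the window were those of this region, at 2420, 3000 and 2219 bp. The third lowest difference was that of the bin from 150250001 to 150300000, which was covered to 4.05% in iPSC and 8.57% in MEF. There OySyNyK had 10.2%, 12.3% and 7.82%, and OSNK 5.59%, 5.85% and 8.41%.

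Merged over the lists, the window held 110 regions, of which 48, or 43.6%, had a peak in 1 library only. Over the genome 39.1% of 222732 regions did. Of the 42 regions with a MEF peak, 34 had none in iPSC, which is 81.0% (exact 95% interval 65.9 to 91.4), against 81.4% over the genome and 68.7% of 67 in the flanks. The share without an iPSC peak is thus near the background. Of these 34, 29 still had a peak at OySyNyK D1, 19 at D3 and 8 at D5. With OSNK the numbers were 25, 16 and 14. The genome-wide shares at D1, D3 and D5 were 68.8%, 43.6% and 28.8% with OySyNyK and 74.3%, 45.3% and 36.2% with OSNK. Followed day by day, 5 of the 34 had no OySyNyK peak at D1, and 9 were last seen at D1, 12 at D3 and 7 at D5, where the genome-wide shares were 26.7%, 25.8%, 16.7% and 23.6%. With OSNK 9 had no peak on any day, and 8 were last seen at D1, 3 at D3 and 13 at D5. The genome-wide shares were 22.4%, 27.4%, 13.1% and 30.1%. In the flanks 13 of 46 such regions, or 28.3%, were last seen at D3 with OySyNyK and 15, or 32.6%, at D5 with OSNK. Regions with a gap between days are not in these counts.

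The highest-scoring MEF regions without an iPSC peak, beside those in the bin just described, were the ones from 150091214, 150534544 and 149752295. The first of them, with a MEF score of 263, was found at D1 of OySyNyK (166) and OSNK (249) and not later. The second scored 250 in MEF and was last seen at D5 of OySyNyK (58.8) and at D3 of OSNK (66.2). The third, near the H19 side, scored 223 in MEF, 110 and 55.3 at D1 and D3 of OySyNyK and 136 at D1 of OSNK.

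Regions with an iPSC peak were mostly absent from MEF and from the intermediates. Of 29 regions with an iPSC peak, 21 had none in MEF, or 72.4% (exact 95% interval 52.8 to 87.3), against 77.8% over the genome. Of these 21, 16 had a peak in no other library, so iPSC-only regions were 16 of 29, or 55.2% (35.7 to 73.6), against 46.0% over the genome and 46.5% of 71 in the flanks. The interval includes both values. At D1, D3 and D5 of OySyNyK 5, 2 and 3 of the 21 had a peak, and 2 on each day of OSNK. Genome-wide shares at these days were 14.8%, 24.2% and 28.8% with OySyNyK and 11.9%, 16.9% and 21.2% with OSNK. A day-to-day increase like that of the genome was not seen among these few regions.

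A single region had no MEF peak and a peak in all 7 other libraries. From 150121282 to 150122314, in the part of the window before the dense bin, no MEF peak was listed, and the iPSC peak scored 169, the highest of that library in the window. Over the 3 days OySyNyK scored 233, 490 and 265, and OSNK 92.2, 143 and 354. The bin around it, from 150100001 to 150150000, had the largest excess of iPSC, with cover of 3.15% in iPSC and none in MEF. It was covered to 3.95%, 1.35% and 1.57% with OySyNyK and to 1.23%, 3.24% and 1.06% with OSNK. The next iPSC gain by score, from 150665193 to 150666503, scored 141 in iPSC, 62.6, 130 and 75.1 with OySyNyK, and had no OSNK peak on any day. The other 3 of the 5 best iPSC gains were found in iPSC alone. They started at 150272727, 149746947 and 150510812 and scored 117, 113 and 111. Bins next in iPSC excess started at 149850001, with 1.85% in iPSC and none in MEF, and at 150650001, with 5.30% in iPSC and 3.82% in MEF.

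**Figure D4:**
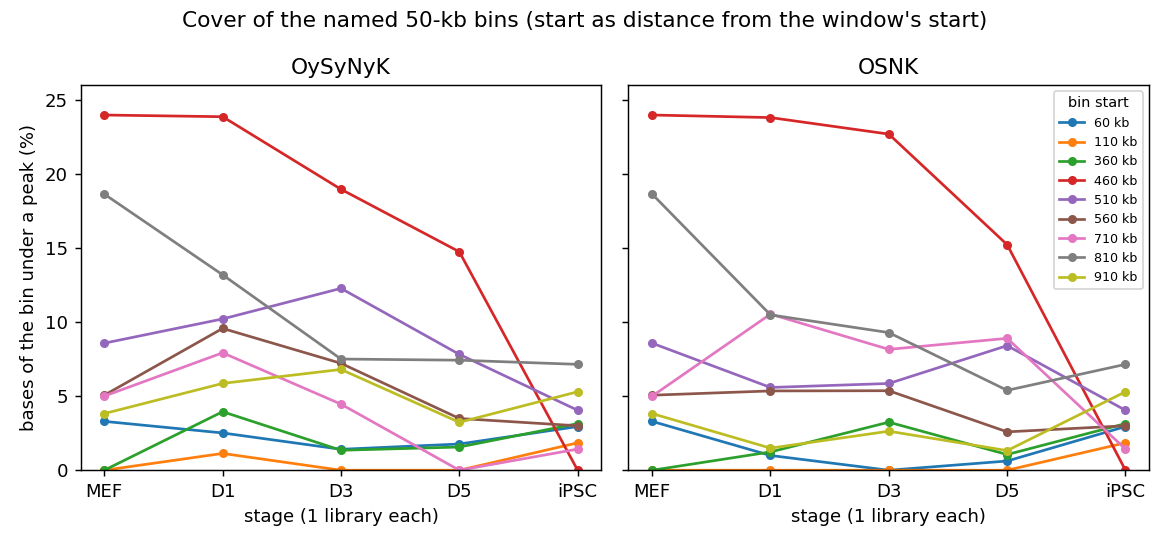
Cover (% of bases under a peak) of the 9 named 50-kb bins from MEF over D1, D3 and D5 to iPSC with OySyNyK (left) and OSNK (right), 1 library per point, each bin labelled by its distance from the window's start; MEF and iPSC values are shared by the panels. The bin at 460 kb stays at 14.7% or more until D5 of both methods and is at 0 in iPSC, and the bin at 710 kb is at 0 at OySyNyK D5 and at 8.90% at OSNK D5.

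The methods were compared on the same day. The OySyNyK minus OSNK difference in window cover was 1.25 points at D1, 0.108 at D3 and -0.326 at D5. Over the whole lists it was -0.57, -0.904 and -0.477 points. In the 2 flanks of 1 Mb together it was 0.523, 0.903 and 0.621 points, so an OySyNyK excess was not particular to the window. None of the 3 days kept its sign in the window. Restricting to scores of 100 or more turned D1 to -0.10 points and D5 to 0.13, and equal numbers of peaks turned D3 to -0.082 and D5 to 0.14.

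By bins, OySyNyK was higher in 2 of 17 at D1, 3 of 15 at D3 and 1 of 16 at D5, where 2.7%, 6.45% and 7.45% of bins were higher over the genome. It was lower in 0 of 17, 0 of 15 and 2 of 16, where 14.3%, 22.4% and 18.9% were lower over the genome. With cover scaled by the library mean 6 of 17 were higher at D1, beside 4.05% over the genome. With peaks of 500 bp 4 of 17 were higher at D1, beside 3.97%. For scores of 100 or more 1 of 15 was higher and 1 lower, beside 3.45% and 17.9%. With equal numbers of peaks 1 of 16 was higher and 1 lower, beside 6.11% and 11.5%. Of 17 bins with a peak in an intermediate, OySyNyK exceeded OSNK on all 3 days in 4 and was below on all 3 in 1, beside 8.47% and 30.5% of bins over the genome. After scaling the numbers were 10 and 1, beside 16.1% and 20.0%. For scores of 100 or more they were 1 and 3 of 15, beside 5.28% and 23.2%. With equal numbers of peaks they were 4 and 3 of 16, beside 10.1% and 20.5%. Peaks of 500 bp gave 2 and 0 of 17, beside 6.52% and 15.1%. The bin from 150650001 to 150700000, on the Phlda2 side, was covered to 5.86%, 6.80% and 3.23% over the OySyNyK days, against 1.49%, 2.63% and 1.33% over the OSNK days. Among peaks with scores of 100 or more its D1 difference was -0.052 points. The bin from 149800001, on the H19 side, had 2.52%, 1.41% and 1.77% with OySyNyK, against 1.00%, 0% and 0.622% with OSNK. The bin from 150300001 had 9.57%, 7.22% and 3.49% with OySyNyK, against 5.35%, 5.37% and 2.59% with OSNK, and its D1 difference among peaks with scores of 100 or more was -2.40 points.

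The reverse was seen in the bin from 150450001 to 150500000, between the dense bin and the end of the window. OySyNyK covered 7.93% and 4.46% of it at D1 and D3 and had no peak there at D5. OSNK covered 10.5%, 8.16% and 8.90% on these days. In iPSC its cover was 1.43%, and in MEF 5.00%. A pair of regions made up most of it. The one from 150471907 to 150474733 scored 183 in MEF, 248 and 317 at D1 and D3 of OySyNyK, and 235, 469 and 99.0 over the OSNK days, with no peak at OySyNyK D5 or in iPSC. The one from 150449444 to 150452428 had peaks in the same 6 libraries, with 130 in MEF, 125 and 68.0 with OySyNyK and 136, 82.8 and 105 with OSNK. At D5 the bin's difference between the methods was -8.90 points, a value as low in 3.2% of bins, and -1.36 points among peaks with scores of 100 or more. These regions were chosen after their values were seen.

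Regions found with 1 method and not with the other were counted for each day. Of 45 regions with an OSNK D1 peak, 5 had no OySyNyK D1 peak, or 11.1% (exact 95% interval 3.71 to 24.1), against 36.1% over the genome and 25.9% of 108 in the flanks. It was 3 of 25 with equal numbers of peaks, 6 of 25, or 24.0%, among scores of 100 or more, and 10 of 40, or 25.0%, where peaks had to cover at least 50% of a region. Of 64 regions with an OySyNyK D1 peak, 24 had no OSNK D1 peak, or 37.5% (25.7 to 50.5), against 24.6% over the genome and 31.6% of 117 in the flanks. At D5, 13 of 24 OySyNyK regions had no OSNK peak (54.2%, genome 38.8%, flanks 42.7%). Of 32 OSNK D5 regions, 21 had no OySyNyK peak, or 65.6% (46.8 to 81.4), against 52.6% over the genome and 39.4% of 71 in the flanks. At D3 these numbers were 20 of 42 (47.6%, genome 39.7%, flanks 59.2%) and 9 of 31 (29.0%, genome 40.2%, flanks 33.8%). Regions with OySyNyK on all 3 days and OSNK on none numbered 2 of 110, or 1.82%, against 0.814% over the genome, and the reverse pattern had 0, against 1.91%. Beside the region from 150665193, the other OySyNyK region was that from 150267757 to 150269039. It scored 52.6 in MEF, 100, 128 and 150 over the OySyNyK days and 65.8 in iPSC. Regions of the intermediates alone, with neither MEF nor iPSC, were 47 of 110, or 42.7% (33.3 to 52.5), against 53.5% over the genome and 54.3% of 256 in the flanks.

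The median peak score of the window lay above that of the whole list in 5 of the 8 libraries and below it in the other 3. The median score was 78.8 in iPSC, where the whole list had 71.0, and 119 in MEF, where it had 103. Over the OySyNyK days it was 89.2, 86.9 and 87.7, beside 95.8, 84.2 and 75.8 in the whole lists. With OSNK it was 125, 86.8 and 78.8, beside 105, 91.4 and 81.3. The highest score was 169 in iPSC and 457 in MEF, 573, 518 and 336 with OySyNyK, and 645, 888 and 448 with OSNK. Peaks with a score of at least 100 were 8 of 29 in iPSC, or 27.6%, and 30 of 44 in MEF, or 68.2%, beside 23.6% and 51.6% in their whole lists. Median peak width was 716 bp in iPSC and 954 bp in MEF, beside 641 and 841 bp in their whole lists.

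**Figure D5:**
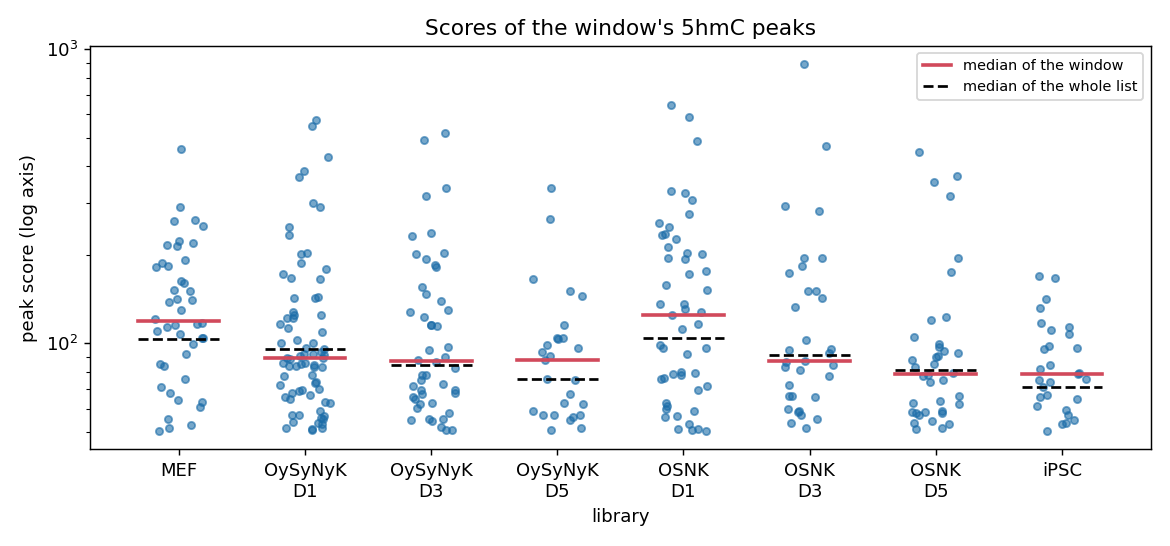
Scores of all 345 window peaks on a log axis, 1 point per peak and 1 column per library, with the window median (solid) and the median of the whole list (dashed). The window median is 78.8 in iPSC and 119 in MEF, and the highest iPSC score is 169.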

How the data were processed

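5hmC capture libraries of 8 mouse samples were used, 1 peak list per library. Per the labels' protocols, 5hmC in sonicated DNA received an azide-bearing glucose, then biotin, and was pulled down with streptavidin. The submitters' processing notes name Bowtie and MACS; no version, setting or control library is stated there. The deposited score is the authors' own value for each peak, 50 or more in every list, and its scale is not stated in the labels. The notes name the human builds hg18 and NCBI36. Peaks on chromosome 7 reach position 152523063, past the last gene of GRCm38, and the assembly is taken as mm9, which the window's definition names. Positions count from 1.

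Cover, bins on a 50-kb grid and merged regions were computed in Python (3.11.15) using pandas (2.3.3), numpy (2.4.6), scipy (1.17.1) and matplotlib (3.10.9) and tested on simulated intervals; bedtools (2.31.1) found identical window counts in all 8 lists. Whole-list cover is taken over the sequence up to the last peak of each chromosome. Intervals are exact 95% ones, Clopper-Pearson for shares and Poisson for peaks. Named bins were the 3 lowest and 3 highest in iPSC minus MEF and up to 3 per direction where the methods differed with 1 sign on all 3 days. Named regions were those in all libraries, up to 5 by score in iPSC without MEF and in MEF without iPSC, and up to 3 found with 1 method on all days and never with the other. The alternatives kept scores of 100 or more, took the 54938 best peaks of each list, set peaks to 500 bp, shortened the flanks to 500 kb, moved bins by 25 kb, scaled cover by the library mean, merged peaks within 1 kb, or asked for at least 50% of a region to be covered. Cover of genes was left out, since no annotation of mm9 was used here. The window, genes and lists were chosen with earlier results of these data known.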

Additional observations from a re-analysis of the deposited data

Results flagged for a closer look

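In each of these cases the 2 methods differed from MEF in opposite directions on the same day, with 1 library each, and the difference between the methods was not tested. Window cover was 0.996 points above MEF at OySyNyK D1 and differed by -0.257 points at OSNK D1. With scores of 100 or more, and with equal numbers of peaks, OySyNyK D1 lay below MEF as well, at 2.73% against 3.35% in MEF and at 3.31% against 4.26% in MEF. With every peak set to 500 bp both lay above MEF, with 3.71% at OySyNyK D1 and 2.51% at OSNK D1 against 2.16% in MEF. In the bin from 150650001 the D1 differences from MEF were 2.04 points with OySyNyK and -2.33 with OSNK. In the bin from 150250001 the D3 differences were 3.70 points with OySyNyK and -2.72 with OSNK, and in the bin from 150450001 the D5 differences were -5.00 points with OySyNyK and 3.90 with OSNK. Bins were looked at where both differences reached 2 points.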

How the results depend on the processing

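The direction of iPSC minus MEF window cover was the same in each alternative tried. The difference was -2.66 points for scores of 100 or more, -2.00 for equal numbers of peaks and -0.73 for peaks of 500 bp. Scores of 100 or more kept 51.6% of the whole MEF list and 23.6% of the iPSC list. That setting by itself lowers iPSC more than MEF, so its direction adds little. OySyNyK minus OSNK turned to -0.10 at D1 and 0.13 at D5 for scores of 100 or more, and to -0.082 at D3 and 0.14 at D5 with equal numbers, where D1 was 0.48. With peaks of 500 bp D3 was 0.75 and D5 -0.54. The cause of these changes was not tested, beyond the fewer peaks or the fixed width that each setting sets. Window cover of OySyNyK D1 lay above MEF as deposited and with peaks of 500 bp, and below it in the other 2 settings; cover of iPSC was the lowest as deposited and for scores of 100 or more, and with equal numbers or peaks of 500 bp some intermediates lay below it.

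Window cover (%), each group of 3 values over D1, D3 and D5, was 3.35 in MEF, 2.73, 2.20 and 1.00 with OySyNyK, 2.83, 2.08 and 0.88 with OSNK and 0.69 in iPSC for scores of 100 or more. It was 4.26 in MEF, 3.31, 2.77 and 2.01 with OySyNyK, 2.83, 2.85 and 1.87 with OSNK and 2.26 in iPSC with equal numbers, and 2.16 in MEF, 3.71, 2.37 and 1.33 with OySyNyK, 2.51, 1.62 and 1.87 with OSNK and 1.44 in iPSC with peaks of 500 bp. The window to flank ratio was 1.17 in MEF, 0.78, 0.90 and 1.26 with OySyNyK, 0.87, 0.96 and 0.75 with OSNK and 0.68 in iPSC for scores of 100 or more. Equal numbers gave 1.19 in MEF, 0.89, 0.81 and 0.74 with OySyNyK, 0.92, 1.06 and 1.15 with OSNK and 0.82 in iPSC, peaks of 500 bp 1.24 in MEF, 1.13, 0.75 and 0.64 with OySyNyK, 0.88, 0.85 and 1.02 with OSNK and 0.79 in iPSC, and flanks of 500 kb 0.95 in MEF, 0.89, 0.79 and 0.76 with OySyNyK, 0.84, 1.00 and 1.24 with OSNK and 1.07 in iPSC. Peak numbers were 30 in MEF, 30, 20 and 9 with OySyNyK, 28, 13 and 9 with OSNK and 8 in iPSC for scores of 100 or more and 39 in MEF, 38, 28 and 20 with OySyNyK, 28, 21 and 23 with OSNK and 29 in iPSC with equal numbers.

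Bins higher in iPSC than in MEF were 2 of 17 with peaks of 500 bp and 4 of 17 after scaling (genome 17.2% and 23.2%). Lower bins were 3 of 17 with peaks of 500 bp and 8 of 15 with the grid moved (genome 26.5% and 34.2%). OySyNyK was higher than OSNK at D1 in 1 of 15 bins for scores of 100 or more, 1 of 16 with equal numbers, 4 of 17 with peaks of 500 bp and 6 of 17 after scaling (genome 3.45%, 6.11%, 3.97% and 4.05%), and lower in 1 and 1 in the first 2 of these. At D3 it was lower in 1 of 12 with equal numbers and 1 of 12 with the grid moved (genome 25.8% and 22.3%). At D5 it was higher in 0 of 14 with equal numbers and 0 of 15 with peaks of 500 bp (genome 13.5% and 6.92%). It was higher there in 2 of 13 with the grid moved and 3 of 16 after scaling (genome 7.39% and 11.9%). It was lower at D5 in 0 of 9 for scores of 100 or more (genome 24.6%). With equal numbers 1 of 14 was lower, and with the grid moved 4 of 13 (genome 13.0% and 18.8%). OySyNyK minus OSNK of single bins turned to 2 (peaks of 500 bp) and 1.72 (scaling) for the bin from 150200001 at D3 and to 0.072 (peaks of 500 bp) for that from 150450001 at D3. For scores of 100 or more the D1 values turned to -1.42, -1.25, -0.052 and -2.40 for those from 150550001, 150250001, 150650001 and 150300001, and the last 2 were the same with equal numbers.

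For scores of 100 or more the window had 51 regions. Of these 21 were in 1 library, 0 in all 8, 2 in iPSC and MEF, 6 in iPSC without MEF, 4 in iPSC alone, 16 in intermediates alone and 1 in OySyNyK on all days without OSNK. OySyNyK regions without OSNK were 7 of 26, 7 of 17 and 3 of 7 over the days. OSNK regions without OySyNyK were 2 of 12 at D3 and 4 of 8 at D5. Of 27 MEF regions without iPSC, 16, 7 and 3 were seen with OySyNyK and 6 and 6 at D3 and D5 of OSNK. With equal numbers, of 80 regions 0 were in all 8 libraries, 20 in intermediates alone and 1 in OSNK on all days without OySyNyK. OySyNyK regions without OSNK were there 12 of 34 at D1 and 11 of 24 at D3. OSNK regions without OySyNyK were 3 of 25 at D1 and 12 of 19 at D5. In that setting 11 and 5 of the 31 MEF regions without iPSC were seen at OySyNyK D3 and D5. Merging within 1 kb gave 2 of 87 regions in all 8. With at least 50% of the region covered, 0 of 110 were in all 8, and 5 of 25 iPSC regions were in MEF. There 10 of 40 OSNK D1 regions were without OySyNyK. Of 33 MEF regions without iPSC, 10 and 8 were seen at D3 and D5 of OSNK. Shares of regions over the genome were not computed in these settings.

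No paired analysis was possible because each group holds 1 library and no test was made. Cover of genes was not run. Unknown read depth, the score minimum of 50 and the single libraries limit each value.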

Other observations

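A long stretch between the first peaks on the H19 side of the window and the dense bin was almost without 5hmC peaks. From 149885859 to 149996023, 110 kb held no peak in any of the 8 libraries. It was followed by a region of 477 bp with an iPSC peak only, at a score of 61.2, and by a further 84.3 kb without a peak. The third longest stretch without a peak, 64.8 kb from 150384684, lay after the dense bin. Sparse stretches were not particular to the window. In the 1 Mb before it, bins from 149300001 to 149500000 were covered to 1.48% or less in every library. Those from 149350001 and 149450001 held no peak. How common such stretches are over the genome was not counted. The lists do not say whether reads could be placed in these stretches.

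2 regions had a peak in every library except OSNK D5, and for the first of them this depends on how peaks were merged: with peaks within 1 kb merged it joins a neighbour that has an OSNK D5 peak, from 149761210 to 149763292, and is in all 8 libraries. The one from 149762154 to 149763292, near the H19 side, scored 132 in iPSC and 104 in MEF, 96.2, 96.8 and 93.5 over the OySyNyK days, and 79.8 and 58.5 at D1 and D3 of OSNK. The one from 150080777 to 150081897 scored 167 in iPSC and 115 in MEF, 83.3, 94.5 and 67.3 with OySyNyK, and 55.9 and 58.7 with OSNK. A peak with a score under 50 would not be listed. Both regions were chosen after their values were seen.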
